A study of Mus musculus with 20 samples.

Results

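Haem is built from glycine and succinyl-CoA by a chain of enzymes that starts and ends in the mitochondrion. The 8 genes described here, Alas1, Alas2, Alad, Uros, Urod, Cpox, Ppox and Fech, encode enzymes of that chain. They were chosen as enzymes of the chain, by a rule that uses no measured value, though with earlier results of these data known: each is the probe set whose array annotation gives exactly 1 symbol equal to the gene's name, and each gene had 1 such probe set. They are 8 of 19505 genes with a probe set of 1 symbol.

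The chain opens with 5-aminolevulinate synthase, which sets the rate of the pathway and comes in a housekeeping form, ALAS1, and an erythroid form, ALAS2. Cytosolic enzymes, among them ALAD, UROS and UROD, join the product into porphyrin rings, and mitochondrial enzymes (CPOX, PPOX and finally ferrochelatase, FECH) finish the ring and insert iron. Erythroblasts make most of the body's haem, for haemoglobin. The erythroid factors GATA1 and KLF1 are known activators of genes of the chain in these cells, Alas2 among them. Repression of ALAS1 by haem is well known in liver.

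RNA was measured on 20 mouse Clariom S arrays, 2 in each of 10 groups, all from mice of C57BL/6 background. In 4 groups, lineage-depleted bone marrow progenitors of female wild-type mice were cultured with erythropoietin. These cultures received no interleukin 6 (D1-Control, D2-Control) or 100 ng/mL recombinant mouse interleukin 6 from the start (D1-IL6, D2-IL6), and the labels do not define the collection points D1 and D2. The other 6 groups held erythroblasts of mice aged 1 year that carried both wild-type genes (double wild type, DWT) or lacked both mDia1 and miR-146a (double knockout, DKO). Proerythroblasts are labelled stage I, the basophilic with the polychromatic cells stage II+III, and orthochromatic cells stage IV. Each DWT group had 1 male (replicate 1) and 1 female mouse (replicate 2), and all DKO arrays came from females. Sex was thus not matched between the genotypes. Where a DWT mouse is followed across stages below, its arrays were joined by the labelled sex, with 1 mouse of each sex assumed. The labels do not say how the stages were isolated, how the knockout alleles were made, or in which cells they act. The series states that 2 mice gave the cultured cells. It does not say which array came from which mouse, so p-values there measure the spread between arrays, which may be technical.

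Values are log2 signals, so a difference of 1 is a 2-fold change. A signal was called near background where it did not exceed the array's background level, the 95th percentile of its background probe sets (7.25 to 7.74). The DKO-I replicates were the least alike pair (r = 0.903 across probe sets, against 0.970 for the next lowest pair), and it is replicate 2 that lies far from every other array. Diaph1, the gene of mDia1, read 9.29 to 11.49 in the 6 DWT arrays and lay near background in all 6 DKO arrays, at 6.87 to 7.59. The mean over 9 measured erythroblast markers was between 14.49 and 14.82 in the cultured groups, 12.34, 13.97 and 15.39 along the DWT stages, and 8.93, 11.94 and 15.18 along the DKO stages (these are group means). In each DKO-I array 6 of the 9 were above background, and Epor, the erythropoietin receptor, and Sptb, a spectrin, were near background in both. Gata1 and Klf1 stand both among these markers and among the transcription factors described further on. The labelled proerythroblasts also carried strong signal of the 11 neutrophil markers, whose mean was 15.85 in DWT-I and 15.64 in DKO-I, against 5.88 to 7.98 in the cultured arrays. RNA of mixed cells does not tell fewer erythroid cells from less RNA per cell.

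**Figure D1:**
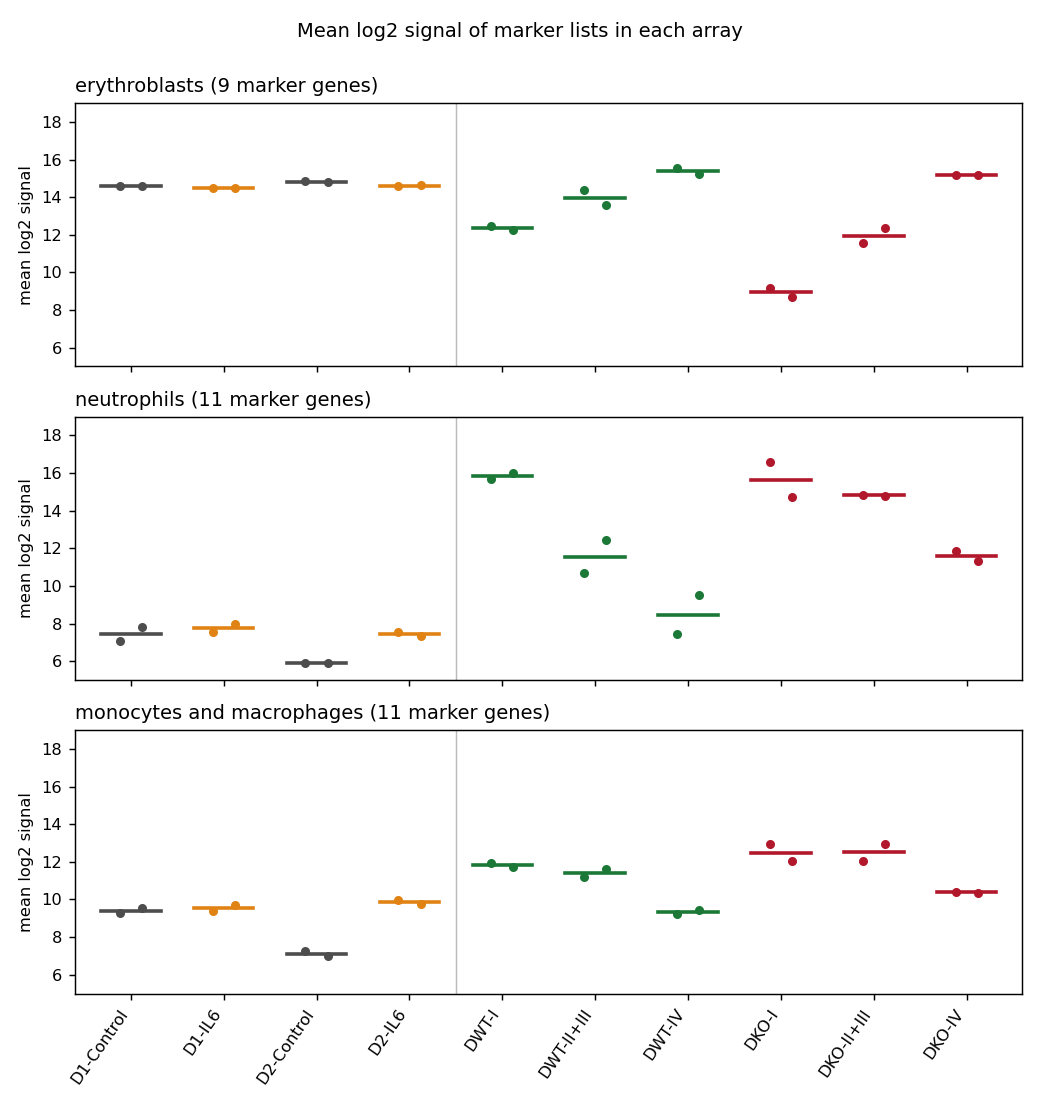
Mean log2 signal of 3 marker lists in each of the 20 arrays (points) with the group mean (lines). Erythroblast markers are lowest in the 2 DKO-I arrays, at 9.18 and 8.69, where neutrophil markers read 16.57 and 14.71.

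Alas1 and the other members did not share a pattern across the 10 groups. Alas1, the housekeeping synthase, was highest in DWT-I (14.87 and 14.42) and lowest in D2-Control (8.58 and 8.10). Its other freshly isolated groups read 13.47 and 13.97 (DWT-II+III), 9.72 and 8.95 (DWT-IV), 14.20 and 10.64 in DKO-I, 14.14 and 13.89 in DKO-II+III and 10.02 and 10.70 in DKO-IV. In culture it read 10.97 and 11.78 in D1-Control, 11.90 and 11.91 in D1-IL6, and 9.59 and 9.88 in D2-IL6. Both stage IV groups and the D2 cultures lay below the other groups by their means, but DKO-I replicate 2 lay below 1 of the DKO-IV arrays. In the order of means, DWT-I stood apart from DKO-II+III, while DKO-II+III, DWT-II+III and DKO-I overlapped their neighbours, as did D2-IL6 and DWT-IV.

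Alas2, the erythroid synthase, which lies on the X chromosome, had the narrowest range of the 7 members measured above background. It read 16.03 and 16.07 in D1-Control, 16.12 and 15.97 in D1-IL6, 18.07 and 17.98 in D2-Control and 18.02 and 18.00 in D2-IL6. In vivo the DWT arrays read 16.87 and 17.16 at stage I, 17.79 and 17.90 at stage II+III and 17.92 and 17.89 at stage IV. The DKO arrays read 14.80 and 14.45, 15.74 and 17.28, and 17.55 and 17.79 at the same stages. DKO-I was lowest and apart from its neighbour, and the D2 cultures and the DWT-IV pair were highest. The male and the female DWT mouse differed by 0.28 at stage I.

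Fech, which inserts iron into the ring, followed a similar course. Its arrays read 16.10 and 15.81 in D1-Control, 15.88 and 15.86 in D1-IL6, 17.39 and 17.31 in D2-Control and 17.17 and 17.19 in D2-IL6. The DWT arrays read 15.84 and 16.07, 17.12 and 16.98, and 17.57 and 17.35 along the stages, and the DKO arrays 13.49 and 12.77, 14.59 and 16.35, and 17.02 and 17.26. DWT-I, D1-Control and D1-IL6 overlapped in level, and DKO-I lay apart below all other groups.

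Alad, the enzyme that joins aminolevulinate into a pyrrole, covered 8.17 log2 units from lowest to highest array. It read 14.52 and 14.24, 16.01 and 15.56, and 16.89 and 17.04 along the DWT stages, and 9.14 and 8.87, 12.86 and 14.27, and 16.30 and 16.34 in the DKO groups. The cultured arrays read 15.80 and 15.66 in D1-Control, 15.57 and 15.62 in D1-IL6, 14.61 and 14.68 in D2-Control and 14.50 and 14.72 in D2-IL6. Unlike Alas2 and Fech, the D2 cultures lay below the D1 cultures. Cpox, coproporphyrinogen oxidase, did the same: 16.52 and 16.32 in D1-Control, 16.45 and 16.07 in D1-IL6, 16.04 and 15.87 in D2-Control, and 15.66 and 15.90 in D2-IL6. Its DWT arrays read 13.58 and 13.22, 15.47 and 14.46, and 16.23 and 16.43 along the stages, and its DKO arrays 9.77 and 10.25, 12.93 and 14.54, and 16.46 and 16.64. The stage IV groups of both genotypes overlapped D1-Control in Cpox.

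Urod, uroporphyrinogen decarboxylase, read 14.06 and 13.84 in D1-Control, 13.84 and 13.98 in D1-IL6, 15.50 and 15.66 in D2-Control and 15.38 and 15.56 in D2-IL6. In DWT it read 12.63 and 12.65, 14.94 and 14.02, and 15.95 and 15.33 along the stages. In DKO it read 10.46 and 6.68, 12.03 and 12.74, and 15.46 and 15.55, and DKO-I replicate 2 was near background. Ppox, protoporphyrinogen oxidase, read 15.18 and 14.74, 14.81 and 14.74, 15.80 and 15.81, and 15.37 and 14.87 in the cultures without and with interleukin 6 at D1 and then at D2. Its DWT arrays read 13.16 and 13.15, 15.63 and 14.25, and 16.36 and 16.54, and its DKO arrays 11.18 and 9.91, 12.32 and 14.05, and 16.14 and 16.25. Uros, uroporphyrinogen synthase, was near background in all 20 arrays, at 3.83 to 6.25, so its values do not show whether it changed and no fold is given for it.

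**Figure D2:**
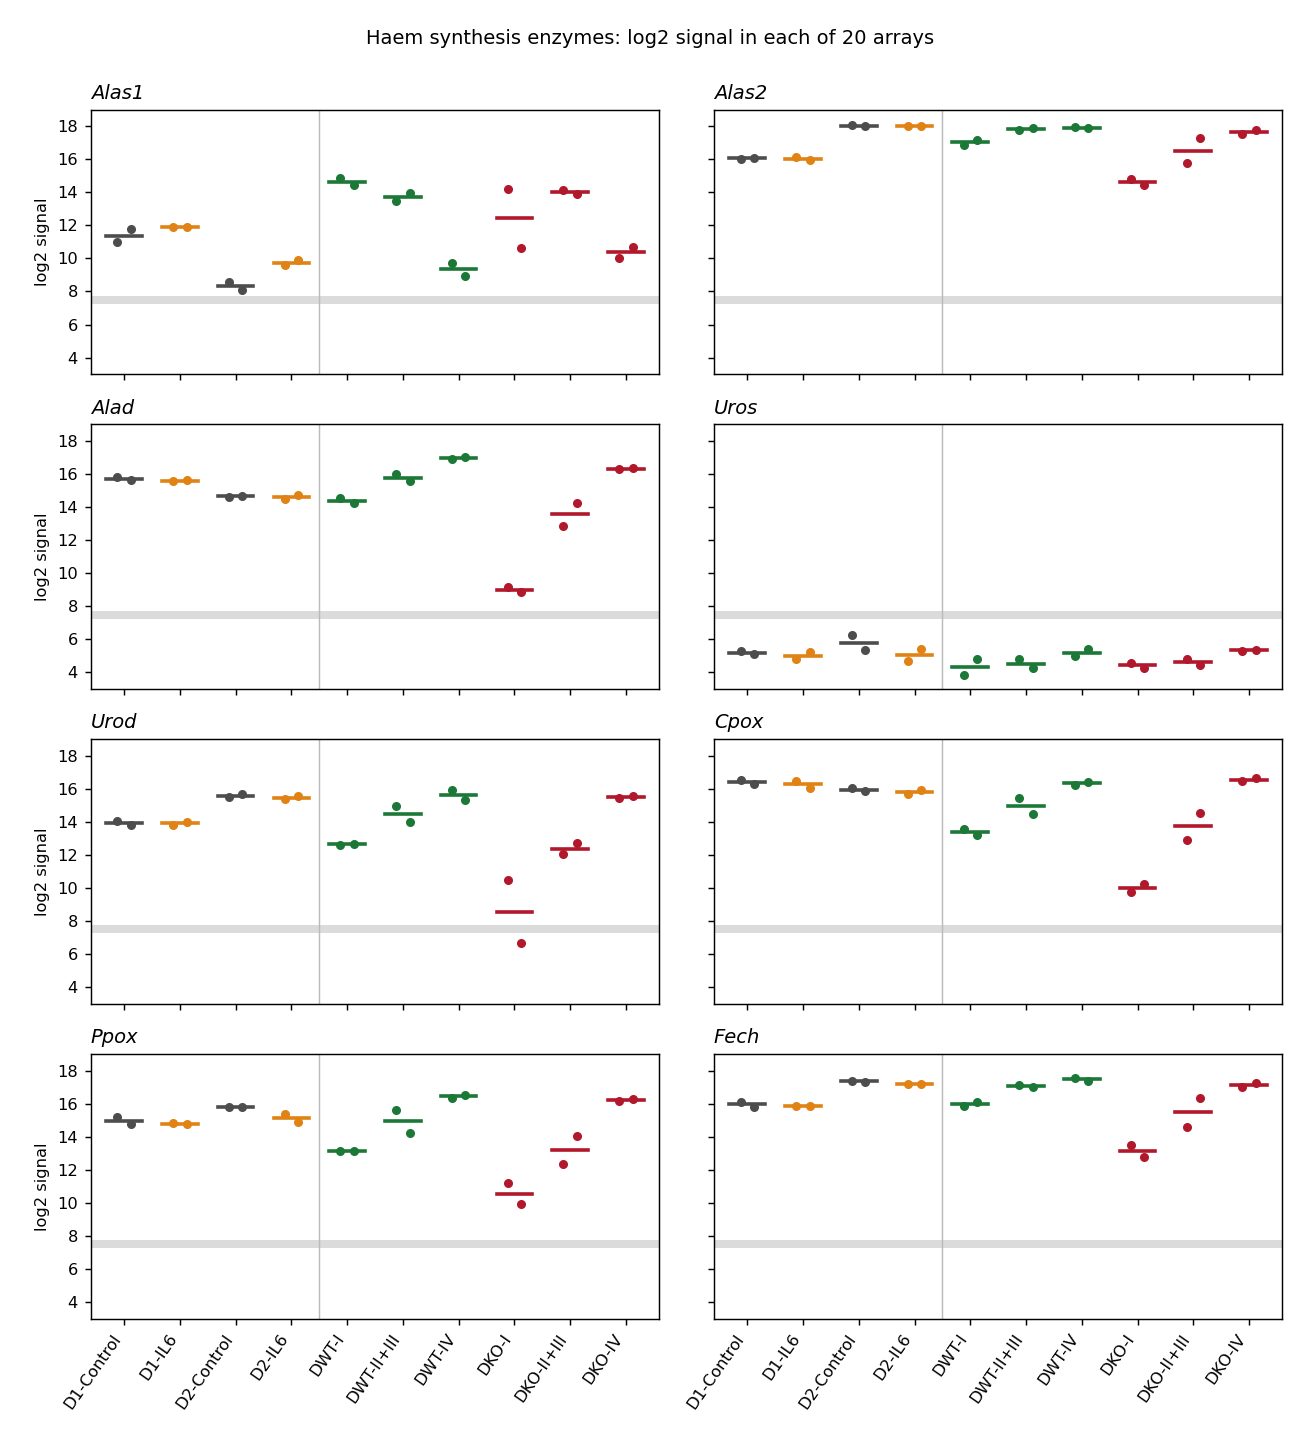
Log2 signal of each enzyme gene in the 20 arrays (points) with the group mean (lines), and in grey the range of background levels, 7.25 to 7.74. DKO-I is the lowest group of Alas2, Alad, Urod, Cpox, Ppox and Fech, and Uros lies under the background band throughout.

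Promoter windows were taken for 7 members, and no window of Fech was searched. The windows were read from RefSeq (GRCm38.p6), each from 250 bases before to 50 after an annotated start. They were searched on both strands for GATA letters (AGATAA or AGATAG, or either of these with T as its first letter) and for CCNCNCCC, letters of the kind that KLF1 binds. A GATA match occurs in 29.8% of the 32851 windows in that table, a CCNCNCCC match in 49.5%, and both in 10.2%. The windows of the synthase pair are shown because Alas1 fell and Alas2 rose from D1 to D2 in culture, and those of Cpox and Alad because these genes, with Alas1, passed the test in more comparisons than the other members. Capitals mark matches, and overlapping matches run together.
Alas1, chr9:106247905-106248204, minus strand: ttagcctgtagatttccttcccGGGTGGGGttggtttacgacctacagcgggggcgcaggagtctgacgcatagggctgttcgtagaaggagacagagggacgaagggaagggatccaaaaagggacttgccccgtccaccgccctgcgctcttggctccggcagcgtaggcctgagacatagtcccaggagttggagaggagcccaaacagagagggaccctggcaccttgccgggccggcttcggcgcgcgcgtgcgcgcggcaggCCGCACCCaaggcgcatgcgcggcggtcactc
Alas2, chrX:150547167-150547466, plus strand: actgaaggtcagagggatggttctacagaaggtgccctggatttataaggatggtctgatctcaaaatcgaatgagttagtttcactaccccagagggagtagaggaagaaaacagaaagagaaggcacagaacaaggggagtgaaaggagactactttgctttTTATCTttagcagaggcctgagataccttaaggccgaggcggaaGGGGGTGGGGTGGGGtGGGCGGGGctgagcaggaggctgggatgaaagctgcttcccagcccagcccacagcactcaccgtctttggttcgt
Alad, chr4:62520014-62520313, minus strand: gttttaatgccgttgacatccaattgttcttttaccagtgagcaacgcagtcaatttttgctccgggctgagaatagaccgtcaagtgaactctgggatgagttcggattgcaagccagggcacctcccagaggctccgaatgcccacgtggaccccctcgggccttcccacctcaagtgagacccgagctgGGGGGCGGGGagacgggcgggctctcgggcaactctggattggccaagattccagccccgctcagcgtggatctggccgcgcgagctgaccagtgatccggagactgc
Cpox, chr16:58669958-58670257, plus strand: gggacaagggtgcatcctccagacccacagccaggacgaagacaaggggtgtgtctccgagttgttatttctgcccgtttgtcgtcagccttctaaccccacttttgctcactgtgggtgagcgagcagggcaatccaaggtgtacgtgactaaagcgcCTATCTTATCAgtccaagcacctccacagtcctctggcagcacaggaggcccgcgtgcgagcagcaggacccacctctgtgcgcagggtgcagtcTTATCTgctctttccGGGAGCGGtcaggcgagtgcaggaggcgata
The Alas2 window held 1 GATA match at -86 to -81 from the start and 4 CCNCNCCC matches between -42 and -19, of which the first 3 overlap. Cpox held 3 GATA matches, of which the pair at -91 to -86 and -86 to -81 share a base, and 1 CCNCNCCC match at 20 to 27. The windows of Alas1 and Alad shown had no GATA match and 2 CCNCNCCC matches each, and Urod and Ppox had no GATA match and 1 CCNCNCCC match each. The windows not shown also differ: that of a second Alas1 start held 2 CCNCNCCC matches and that of a second Alad start held 4. The first Uros window held 1, and these 3 windows had no GATA match. Both kinds of match stood together in Alas2 and Cpox, and among the other members searched Uros had 2 GATA matches in the second of its windows. A match is a run of letters and does not show binding.

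Cells of the later culture point differed from those of the earlier one in most members, and the members split. In control cultures Alas2 rose from D1 to D2 by 1.98 ± 0.07 (SE, n = 2 arrays in each group; 3.93-fold; adjusted p = 2.08e-08), Urod by 1.63 ± 0.13, Fech by 1.39 ± 0.09 and Ppox by 0.84 ± 0.17. Alas1 fell by 3.03 ± 0.31 (8.19-fold; adjusted p = 2.47e-05), Alad fell by 1.08 ± 0.11 and Cpox fell by 0.46 ± 0.13 (adjusted p = 0.0184). The arrays of D1-Control and D2-Control did not overlap for any of these 7 genes, nor for Uros, which was near background. How many of all probe sets also had no overlap was not counted. With limma and Benjamini-Hochberg adjustment, 4 of 8 members passed upward, where 19.7% of all 19572 probe sets did, and 3 passed downward, where 23.5% did. The median of the 8 was 0.72, against 0.17 over all probe sets, but the 8 include Uros, near background throughout. Without Uros the middle value was that of Ppox, 0.84.

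Interleukin 6 cultures gave the step on arrays of their own. Alas2 rose by 1.97 ± 0.07 (adjusted p = 1.94e-08), Urod by 1.56 ± 0.13 and Fech by 1.31 ± 0.09. Alas1 fell by 2.17 ± 0.31 (4.50-fold; adjusted p = 3.48e-04), Alad fell by 0.99 ± 0.11 and Cpox fell by 0.48 ± 0.13. Ppox differed by 0.35 ± 0.17 and did not pass (adjusted p = 0.15). Thus 3 of 8 members passed upward and 3 downward, against 13.0% and 20.2% of all probe sets. With all 20 arrays in 1 fit, Alas1, Alas2, Alad and Fech passed in control cultures and Alas2 and Fech in interleukin 6 cultures. The call for Cpox also ended without an intensity trend, without D1-Control replicate 1 or D2-Control replicate 2, and without replicate 1 of D1-IL6 or of D2-IL6. Over the 10 alternatives its adjusted p ran from 0.00156 to 0.421 in control and from 0.00155 to 0.455 in interleukin 6 cultures. Ppox passed in interleukin 6 cultures without D2-IL6 replicate 2 (0.60, adjusted p = 0.0191).

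**Figure D3:**
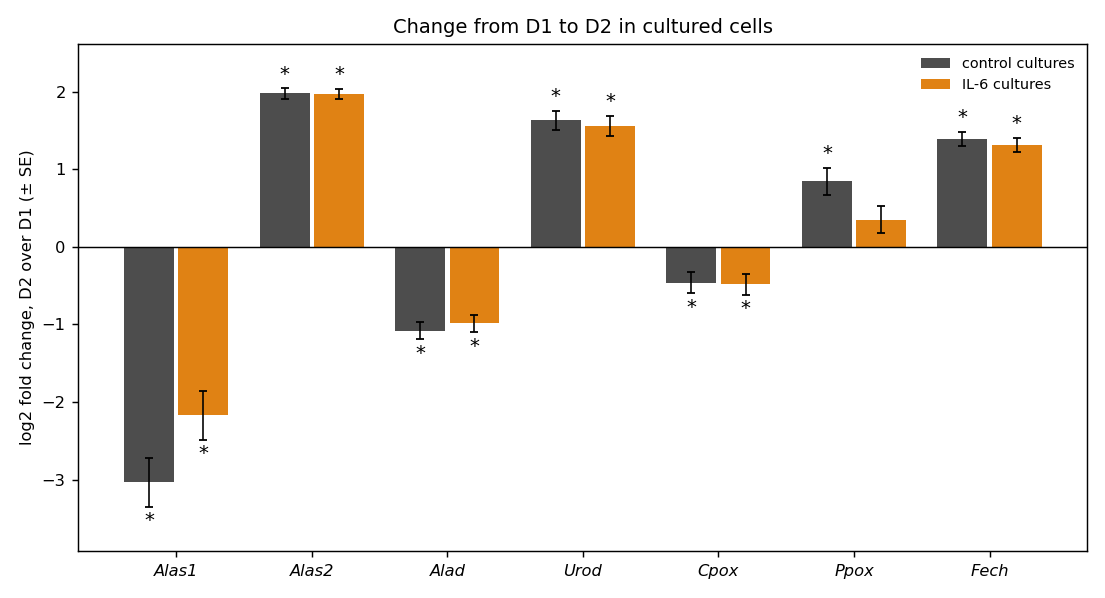
Log2 fold change from D1 to D2 with its SE for each enzyme gene above background, in control and in interleukin 6 cultures (2 arrays per group); asterisks mark adjusted p under 0.05 in limma. Alas2, Urod and Fech stand above 0 by 1.31 to 1.98, and Alas1, Alad and Cpox stand below 0.

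Other genes of the haem pathway also split over this step. Of 8 haem breakdown, export and sensing genes, 6 rose and 2 fell in control cultures (median 2.34), and again 6 rose and 2 fell in interleukin 6 cultures (median 2.19). The haem-degrading oxygenase Hmox1 rose by 4.93 ± 0.22 in control cultures, from 10.04 and 10.28 to 15.11 and 15.08. The haem-sensing repressor Bach1 rose by 2.32 ± 0.14, and the haem-regulated kinase gene Eif2ak1 by 2.36 ± 0.12. The haem exporter Flvcr1 fell by 1.69 ± 0.29, with 1 of the 2 D2-Control arrays near background, and the biliverdin reductase Blvra fell by 1.56 ± 0.24. Of 8 measured mitochondrial iron, glycine and porphyrin transporters 3 rose and 3 fell in control cultures, with Slc25a39, a mitochondrial glutathione carrier, up by 3.47 ± 0.18 and Tmem14c, a porphyrinogen transporter, down (-1.75 ± 0.12).

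Among genes that supply or limit the synthase, some also passed. Of 7 precursor supply genes 3 fell in control cultures and none rose, among them the succinyl-CoA ligase subunit Suclg1 (-2.79 ± 0.34). Of 4 ALAS turnover and chaperone genes, the unfoldase Clpx rose by 1.73 ± 0.22 and Clpp, Lonp1 and Pgrmc1 fell. Among 7 measured iron-sulphur and iron-sensing genes 3 rose and 3 fell. The iron regulatory protein gene Aco1 was near background in both D2-Control arrays and so at least 5.34-fold lower there than in D1-Control. Such a bound sets the mean of the brighter group against the lowest signal above background on each array of the dimmer group. Ireb2 fell by 1.55 ± 0.28, and Hscb, an iron-sulphur co-chaperone, rose by 3.73 ± 0.17. Of 7 erythroid transcription factors 2 rose, Nfe2 by 3.20 ± 0.16 and Lmo2 by 1.80 ± 0.32, and 3 fell, Klf1 (-0.81 ± 0.13), Zfpm1 (-0.60 ± 0.11) and Ldb1 (-2.72 ± 0.20).

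Signals of other cells moved over the same culture step. In control cultures 5 of 7 measured granulocyte progenitor genes fell (median -4.46), as did 5 of 11 neutrophil genes and 7 of 11 monocyte and macrophage genes. Of 9 erythroblast markers 3 rose and 2 fell (median 0.29). The granulocyte progenitor mean was 9.88 and 10.64 in D1-Control, 11.39 and 11.55 in D1-IL6, 7.10 and 7.22 in D2-Control and 8.64 and 8.87 in D2-IL6, which is also the order of the group means of Alas1. The part of such cells in the values of the members was not tested.

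Interleukin 6 cultures against control at D1 gave no call among the members. In limma 0 of 8 passed, 0 had an unadjusted p under 0.05, and 0.0511% of all probe sets passed. The log2 differences ran from -0.19 (Ppox) to 0.53 (Alas1), with -0.16 for Cpox, -0.13 for Alad and -0.04 for Urod. The 95% interval was -0.16 to 0.14 for Alas2, -0.29 to 0.12 for Fech and -0.16 to 1.23 for Alas1. Of 7 granulocyte progenitor genes 1 rose at this point (median 1.14).

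At D2, Alas1 was the member that passed between interleukin 6 and control cultures. It rose by 1.40 ± 0.31 (2.64-fold, adjusted p = 0.037 in limma), from 8.58 and 8.10 in D2-Control to 9.59 and 9.88 in D2-IL6. In this direction 2.92% of all probe sets passed. Ppox read 15.80 and 15.81 without and 15.37 and 14.87 with interleukin 6, a difference of -0.68 ± 0.17 that did not pass (adjusted p = 0.0682), though it did without D2-IL6 replicate 1 (-0.93, adjusted p = 0.0161). Alas2 differed by -0.02 (95% interval -0.17 to 0.13), Alad by -0.04, Urod by -0.11, Cpox by -0.18 and Fech by -0.17, and for Alas2 and Alad the sign turned after quantile normalization. Of the pathway lists, the iron carrier Slc25a37 fell by 0.51 ± 0.10 and Aco1, near background in D2-Control, rose at least 2.28-fold (adjusted p = 0.00334), and no gene of the haem breakdown list passed.

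The Alas1 call at D2 rested on few arrays: it ended when any 1 of the 4 was left out, after quantile normalization (adjusted p = 0.0814) and with all 20 arrays in 1 fit (0.68), and the adjusted p ran from 0.0159 to 0.68 over 10 alternatives. Beside it, 4 of 7 granulocyte progenitor genes rose, such as Elane by 3.50 ± 0.34, and 7 of 11 monocyte and macrophage genes rose and 1 fell, while their part in the Alas1 value was not tested. The effect of interleukin 6 at D2 did not differ from that at D1 by the interaction test in any member, and 1.19% of all probe sets passed that test. The difference was 0.87 ± 0.44 for Alas1 (adjusted p = 0.699) and -0.49 ± 0.24 for Ppox (adjusted p = 0.688), and no member had an unadjusted p under 0.05.

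At stage I, 4 of the 8 enzyme genes were lower in double knockout than in double wild-type cells. Alad fell by 5.38 ± 0.44 (SE, n = 2 arrays in each group; 41.6-fold; adjusted p = 0.00177), from 14.52 and 14.24 in DWT-I to 9.14 and 8.87 in DKO-I. Cpox fell by 3.39 ± 0.52 (10.5-fold; adjusted p = 0.0223), Fech fell by 2.83 ± 0.48 (adjusted p = 0.0352) and Alas2 fell by 2.39 ± 0.41 (adjusted p = 0.036). The arrays of these 4 genes did not overlap between the genotypes, nor did those of Alas1, Urod and Ppox, which did not pass. The share of all probe sets without overlap was not counted. In limma 4 of 8 members passed downward, and 0.388% of all probe sets did. The median of the 8 was -2.72, against 0.15 over all probe sets. Without Uros, near background throughout, the middle value was that of Fech, -2.83.

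The remaining members of stage I did not pass. Urod differed by -4.07 ± 0.93 (adjusted p = 0.114), with 10.46 and 6.68 in DKO-I, of which the lower was near background. Ppox differed by -2.61 ± 0.63 (adjusted p = 0.134). Alas1 differed by -2.23 ± 0.89 (adjusted p = 0.303), since DKO-I replicate 1 read 14.20, close to the DWT-I arrays, and replicate 2 read 10.64. Without DKO-I replicate 2, which stood apart, Alad (-5.24, adjusted p = 0.00134) and Cpox (-3.63, adjusted p = 0.025) passed, and Alas2 (adjusted p = 0.0949) and Fech (0.105) did not. Without DKO-I replicate 1 the 7 members above background passed, and without either DWT-I array, or with only the 4 arrays compared, none did. Over 10 alternatives the adjusted p ran from 1.14e-06 to 0.346 for Alad, 3.8e-04 to 0.381 for Cpox, 9.08e-04 to 0.381 for Alas2 and 9.16e-04 to 0.401 for Fech.

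Some genes of the pathway lists and of other lists also passed at stage I. Of the pathway lists, 1 of 8 measured transporters fell, the inner membrane carrier Abcb10 (-3.82 ± 0.52), and 2 of 7 transcription factors fell, Klf1 (-3.33 ± 0.53) and the GATA1 cofactor gene Zfpm1 (-5.58 ± 0.91). DKO-I replicate 2 was near background for Abcb10 and for Zfpm1, so the sizes of these differences are less certain. None of 7 precursor supply, 4 ALAS turnover, 7 iron-sulphur, 8 haem breakdown or 4 Alas1 regulator genes passed. Of the 9 erythroblast markers 7 fell (median -3.33), and of 11 neutrophil markers 0 passed (median -0.17); 1 of 5 eosinophil genes and 1 of 4 megakaryocyte and platelet genes fell, and 2 of 6 T and NK cell genes rose. The part of the share of erythroid cells in the difference was not tested.

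At stage II+III no member passed between the genotypes. In limma 0 of 8 passed, where 0.618% of all probe sets did. At the looser threshold of an unadjusted p under 0.05 stood 6 of 8 members, and the share of all probe sets there is not given. Alad differed by -2.22 ± 0.44 (adjusted p = 0.0564), Urod by -2.10 ± 0.93, Ppox by -1.76 ± 0.63, Fech by -1.58 ± 0.48, Alas2 by -1.33 ± 0.41 and Cpox by -1.23 ± 0.52, and Alas1 by 0.30 ± 0.89. DKO-II+III replicate 2 read higher than replicate 1 in Alas2, Alad, Urod, Cpox, Ppox and Fech, and its erythroblast markers were also higher (12.35 against 11.54). Without that replicate 3 members passed, Alad (-2.92), Alas2 (-2.10) and Fech (-2.46). Without DKO-I replicate 2, which this comparison does not hold but which adds to the shared spread, 2 did, Alad and Urod. Abcb10 fell by 3.51 ± 0.52 at this stage, the 1 of 8 transporters that passed. Beside these values, 3 of 9 erythroblast markers fell (median -1.97), and 1 of 11 neutrophil markers rose (median 3.10).

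At stage IV no member passed between the genotypes. In limma 0 of 8 members passed, 0 had an unadjusted p under 0.05, and 0.0460% of all probe sets passed. The differences ran from -0.64 (Alad, 95% interval -1.62 to 0.33) to 1.02 (Alas1, -0.94 to 2.99), with -0.32 for Fech, -0.25 for Ppox and -0.13 for Urod. For Alas2 the interval was -1.14 to 0.67 and for Cpox -0.94 to 1.38. None of the 9 erythroblast markers passed at this stage (median -0.33), nor did any of the 11 neutrophil markers (median 3.04), of which 8 had an unadjusted p under 0.05.

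**Figure D4:**
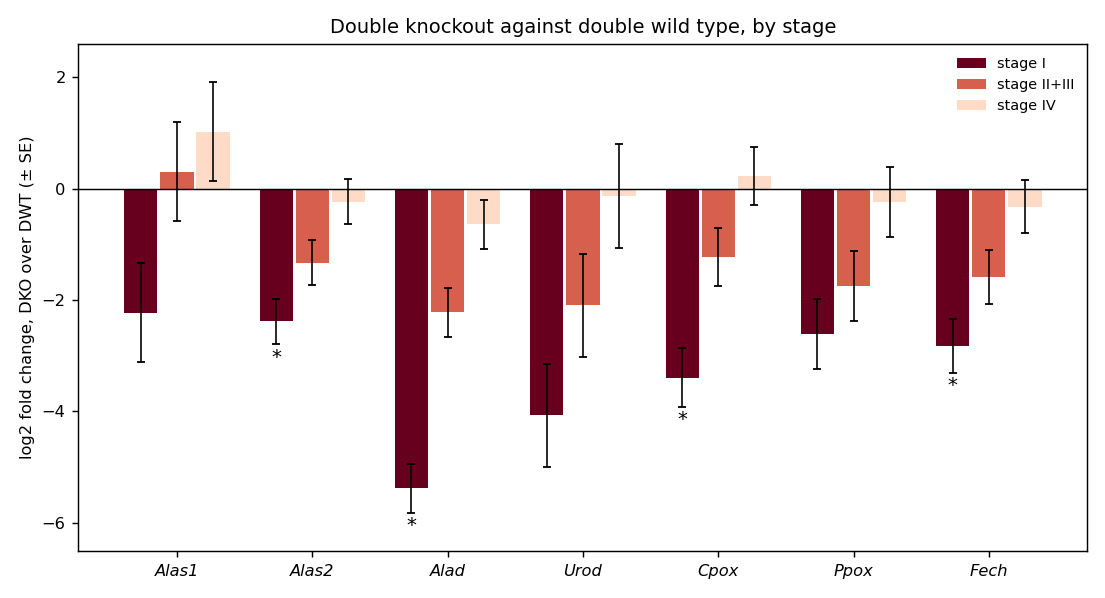
Log2 fold change of DKO over DWT with its SE for each enzyme gene above background at stages I, II+III and IV (2 arrays per group); asterisks mark adjusted p under 0.05 in limma. The bars of Alad shorten from -5.38 at stage I to -2.22 and -0.64, and the asterisks stand at stage I on Alas2, Alad, Cpox and Fech.

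Whether the genotype difference itself changed along the stages was tested as an interaction, and no member passed. Between stages I and IV the difference of Alad moved by 4.73 ± 0.62 (adjusted p = 0.0657; unadjusted p = 1.32e-05), that of Cpox by 3.62 ± 0.74 (adjusted p = 0.332) and that of Urod by 3.94 ± 1.31 (adjusted p = 0.50). The 7 members above background had an unadjusted p under 0.05 in this test. In limma 0% of all 19572 probe sets passed in each of the 3 interactions (II+III minus I, IV minus II+III, IV minus I). Unadjusted p was under 0.05 for 2 members (Alad, Cpox) in the first of these and for 1 (Alad) in the second. The share of all probe sets at that unadjusted threshold is not given.

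Within the double wild type, the step from stage I to II+III showed higher enzyme signal, Alas1 apart, in both the male and the female arrays. Alad differed by 1.48 in the male and 1.32 in the female, Urod by 2.32 and 1.37, Cpox by 1.89 and 1.23, Ppox by 2.47 and 1.10, Fech by 1.28 and 0.91 and Alas2 by 0.92 and 0.74. Alas1 differed by -1.41 and -0.45. With the spread taken from all 12 in vivo arrays, 0 of 8 members passed in limma, where 0.245% of all probe sets passed. An unadjusted p under 0.05 was reached by 4 members, and the share of all probe sets there is not given. With the 6 DWT arrays alone and the mouse as a block, 6 rose: Alad (adjusted p = 0.00453), Fech (0.0048), Urod (0.00515), Alas2 (0.00662), Cpox (0.0148) and Ppox (0.0214), where 2.16% of all probe sets rose. Without the block the same 6 passed. In the fit of 12 arrays, in which no member passed, 3 of 11 neutrophil markers fell over this step (median -4.51) and 0 of 9 erythroblast markers passed (median 1.62, with 7 at an unadjusted p under 0.05).

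From stage II+III to IV in the double wild type, Alas1 fell by 4.38 ± 0.89 (20.8-fold; adjusted p = 0.0242), with differences of -3.74 in the male and -5.02 in the female. In this direction 3.57% of all probe sets passed, and no other member did. Ppox differed by 1.50 ± 0.63, Cpox by 1.37 ± 0.52, Alad by 1.18 ± 0.44, Urod by 1.16 ± 0.93, Fech by 0.41 ± 0.48 and Alas2 by 0.06 ± 0.41. With the DWT arrays alone and the mouse as a block, Alas1 fell (adjusted p = 2.09e-04) and Alad, Cpox, Urod and Ppox rose (adjusted p = 0.00304, 0.00801, 0.0132 and 0.0136), where 13.0% of all probe sets fell and 8.85% rose. The Alas1 call of the larger fit ended when any 1 of the 4 arrays was left out, and its adjusted p ran from 2.09e-04 to 0.23 over 13 alternatives. The granulocyte progenitor mean read 12.58 and 13.00 before and 9.25 and 9.61 after this step (2 of 7 genes fell). Of other markers, 6 of 11 monocyte and macrophage, 5 of 11 neutrophil, 1 of 5 eosinophil and 1 of 5 progenitor genes fell, and 2 of 9 erythroblast markers rose. Their part in the Alas1 value was not tested.

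In the double knockout, Alad and Cpox rose over both steps. From stage I to II+III, Alad rose by 4.56 ± 0.44 (23.7-fold; adjusted p = 0.00578) and Cpox by 3.72 ± 0.52 (13.2-fold; adjusted p = 0.0185), and 0.240% of all probe sets rose. Urod (3.82 ± 0.93), Ppox (2.64 ± 0.63), Fech (2.34 ± 0.48, adjusted p = 0.09) and Alas2 (1.89 ± 0.41) did not pass in limma. An unadjusted p under 0.05 was found for 6 of 8 members, and the share of all probe sets there is not given. Alas1 differed by 1.60 ± 0.89, and without DKO-I replicate 2 by -0.18. The count of members that passed was 7 without DKO-I replicate 1, 4 without DKO-II+III replicate 1 and 1 without DKO-II+III replicate 2. With only the 4 arrays compared neither Alad nor Cpox passed (adjusted p = 0.96 for each). Klf1 rose by 3.98 ± 0.53 and Zfpm1 by 6.08 ± 0.91 from a group with 1 array near background, the 2 of 7 transcription factors that passed, and 6 of 9 erythroblast markers rose (median 3.06).

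From stage II+III to IV in the double knockout, Ppox rose by 3.01 ± 0.63 (8.08-fold; adjusted p = 0.0182), Cpox by 2.82 ± 0.52 (adjusted p = 0.0111) and Alad by 2.75 ± 0.44 (adjusted p = 0.00678), where 4.11% of all probe sets rose. Alas1 fell by 3.66 ± 0.89 (12.6-fold; adjusted p = 0.0329), where 3.66% fell. Urod (3.12 ± 0.93, adjusted p = 0.0692), Fech (1.67 ± 0.48, adjusted p = 0.0631) and Alas2 (1.16 ± 0.41, adjusted p = 0.118) did not pass. Of 8 measured transporters 5 rose, with Abcb10 up by 4.92 ± 0.52 and the porphyrin carrier Abcb6, near background in DKO-II+III, at least 14.0-fold higher, and 5 of 7 transcription factors rose, among them Klf1 by 2.96 ± 0.53 and Gata1 by 2.44 ± 0.46. The 9 erythroblast markers all rose (median 3.07), 6 of 11 neutrophil markers fell (median -3.39) and 4 of 7 granulocyte progenitor genes fell (median -5.09). The count of 4 members was 1 without DKO-II+III replicate 1, 1 without DKO-IV replicate 1 and 0 without DKO-IV replicate 2. Steps of a genotype share their stage II+III arrays, and the genotype comparisons reuse the same 12 arrays, so these results are not independent of each other.

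**Figure D5:**
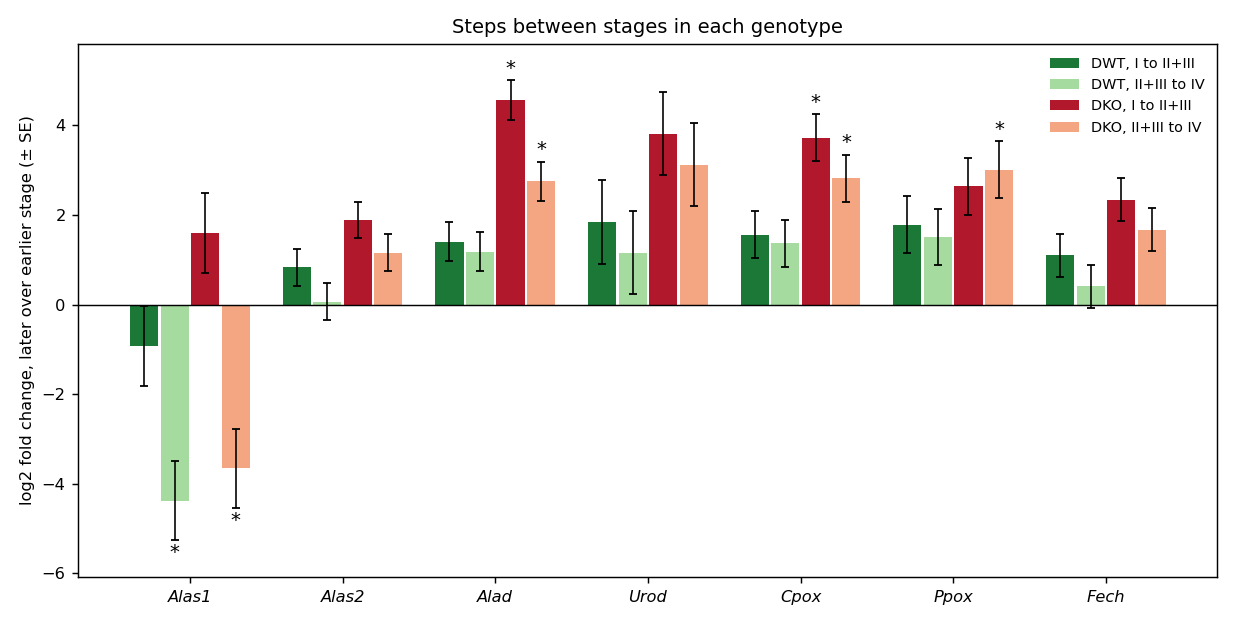
Log2 fold change from an earlier to the next stage with its SE for each enzyme gene above background, in DWT and DKO (2 arrays per group); asterisks mark adjusted p under 0.05 in limma. Alas1 is below 0 from stage II+III to IV in both genotypes (-4.38 and -3.66), where the bars of the other 6 genes are above 0, although that of Alas2 in DWT (0.06) turns sign after quantile normalization.

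Over the 11 comparisons of 2 groups, Alas1, Alad and Cpox each passed in 5, Alas2 and Fech in 3, Urod and Ppox in 2 and Uros in 0. Alad and Cpox fell from D1 to D2 in culture and rose along the DKO stages, and Alas1 fell over every step for which it passed.

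The likeness of patterns over the 12 in vivo arrays is given as a description; these arrays share mice, stages and markers of other cells. Alas2 and Fech were each among the closest genes to the other, at r = 0.994, of 9724 genes above background in at least 2 arrays. The closest gene to Cpox was Klf1 (r = 0.997), to Alad the blood group gene Kel (0.992), to Urod the GPI anchor gene Pigq (0.996), to Ppox the transferrin receptor Tfrc (0.989) and to Fech Isg20 (0.995). Among themselves Alas2, Alad, Urod, Cpox, Ppox and Fech correlated at 0.920 to 0.994. Alas1 correlated with them at -0.50 to -0.24, and its closest gene was the aldehyde reductase Akr1a1 (0.981).

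Over all 20 arrays the closest gene was again Klf1 for Cpox (r = 0.993), and it was Hemgn for Alad (0.984), Slc43a1 for Urod (0.991), the Rhesus gene Rhd for Ppox (0.979), Isg20 for Fech (0.983), Marchf2 for Alas2 (0.977) and Tmem205 for Alas1 (0.967). The 8 cultured arrays were of D1 or D2, and Alas1, Alas2, Alad, Urod, Cpox and Fech passed over that step in both kinds of culture. Likeness of these genes within the cultured arrays may thus largely restate the step, while Ppox passed in control cultures only. The closest genes were Actr3 for Alas1, Art4 for Alas2, Wdr5 for Alad, Aqp9 for Urod, Noct for Cpox, Clk4 for Ppox and Dusp8 for Fech.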

How the data were processed

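The data were 20 Clariom S arrays, 2 in each of 10 groups taken from the labels. Per the labels' protocols, Trizol RNA was amplified and labelled with a Pico kit. Per the submitters' processing notes, the authors used RMA in Affymetrix Expression Console, which gave the deposited log2 values. The notes do not say whether all 20 arrays were normalized together, and levels are set across cultured and in vivo arrays with that limit.

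A limma model (version 3.58.1, R 4.3.3; lmFit, with eBayes moderation that follows intensity) was fitted to the 8 cultured arrays and another to the 12 in vivo arrays. Residual degrees of freedom were 4 and 6, and prior ones 6.41 and 4.52. P-values, 2-sided, were adjusted by Benjamini and Hochberg's method across all 19572 probe sets with 1 symbol, and those under 0.05 passed. Shares of all probe sets are given at this adjusted threshold alone. Errors are SE and intervals 95%. The script was tested on simulated data.

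The members and lists were chosen with earlier results of these data known. The named genes are the members, Uros by its level only. Other genes come from fixed pathway and marker lists, and from likeness (highest Pearson r). Choice of the pathway genes quoted with values, and the setting of Alas1 beside granulocyte progenitor genes, followed a look at their values. DWT replicate numbers name the male and the female mouse and so pair the stages. Deviations of the paired arrays correlated at r = 0.099 (I with II+III), 0.021 (I with IV) and 0.124 (II+III with IV). Other arrays could not be paired from the labels.

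Alternatives were quantile normalization, centring on the array median, no trend, all 20 arrays in 1 fit, dim probe sets left out (fewer than 2 arrays of the fit above background), only the 4 arrays compared, the DWT arrays with and without the mouse block, and each array left out; the lone array is then assumed to vary like the other groups. Leaving DKO-I replicate 2 out of comparisons that do not hold it was added after seeing the data. The number of arrays limits the precision.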

Additional observations from a re-analysis of the deposited data

How the results depend on the processing

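No called value of a member changed direction under any alternative, but most alternatives could not turn one. Those that change only the model, the probe sets tested or the other groups in the fit leave the differences of group means as they were. The arrays of the 2 groups did not overlap for any called value, so leaving out 1 array could not turn it either. Of 25 calls, 25 held after centring on the median and with dim probe sets left out, 24 after quantile normalization, 21 without an intensity trend, 18 with only the 4 arrays compared and 17 with all 20 arrays in 1 fit; of 105 values with 1 array left out, 71 kept their call and 34 lost it. No other probe set of a member existed to be tried. The largest shift from centring was 0.105 in cultured and 0.145 in in vivo arrays. Counts of members that passed and moved by over 1.5 times, with some smaller moves, are as follows. Why they moved was not tested.

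With all 20 arrays in 1 fit the count was 0 for interleukin 6 at D2, 4 for D2 against D1 in control and 2 in interleukin 6 cultures, 6 for DKO against DWT at stage I, 3 for DKO against DWT at stage II+III, 3 for the second DWT step, 6 and 7 for the DKO steps, 1 for the interaction of stages II+III and I and 2 for that of IV and I. With only the 4 arrays compared it was 0 for interleukin 6 at D2, 0 for DKO against DWT at stage I, 6 and 4 for the DWT steps and 0 and 5 for the DKO steps. With the mouse as replicate block in the DWT arrays alone, it was 6 for the first and 5 for the second step, and 6 and 5 with no block, so the block itself changed no call there. After quantile normalization interleukin 6 at D2 had 0, and with dim probe sets left out 2 (Alas1, and Ppox at an adjusted p of 0.0319); the latter setting gave 1 at stage II+III between the genotypes and 6 for the second DKO step. Without an intensity trend stage I had 2.

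Leaving out 1 array at a time, the count ran from 0 to 1 for interleukin 6 at D2, 0 to 7 for DKO against DWT at stage I, 0 to 3 at stage II+III, 0 to 1 for each DWT step (1 for the first without DKO-I replicate 2), 1 to 7 and 0 to 6 for the DKO steps, 0 to 3 for the interaction of II+III and I and 0 to 7 for that of IV and I.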

Other observations

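Alas1 and the granulocyte progenitor genes are set side by side here after their values were seen, as a description. The mean over 7 measured granulocyte progenitor genes (Elane, Mpo, Prtn3, Ctsg, Ms4a3, Cebpe, Gfi1, which encode granule proteins, a membrane protein and transcription factors of early granulocytes) read 13.93 and 13.65 in DWT-I, 12.58 and 13.00 in DWT-II+III and 9.25 and 9.61 in DWT-IV. It read 13.86 and 10.40 in DKO-I, 13.89 and 13.20 in DKO-II+III and 10.60 and 8.05 in DKO-IV. In DKO-I, where the Alas1 replicates lay 3.56 apart (14.20 and 10.64), replicate 1 was the higher in both. In DKO-IV Alas1 was the higher in replicate 2 (10.70 against 10.02) and the progenitor mean in replicate 1. Over the 12 in vivo arrays Alas1 correlated with that mean at r = 0.924 and over all 20 at r = 0.952. The other 6 enzyme genes above background correlated with it at -0.54 to -0.32 over the 12. Among the other lists Alas1 reached r = 0.932 over the 12 with 4 dendritic cell genes, 0.849 with 5 eosinophil genes, 0.806 with monocyte and macrophage genes and 0.735 with neutrophil genes, and -0.48 with erythroblast markers. Points share mice, stages and arrays, and whether cells other than erythroblasts contribute to the Alas1 signal was not tested.

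Regulators known to act on Alas1 outside the erythroid lineage (Ppargc1a, Ppargc1b, Nrf1, Foxo1) were called in few comparisons. Nrf1 fell by 1.05 ± 0.16 from D1 to D2 in control cultures (adjusted p = 4.22e-04 in limma) and by 0.92 ± 0.16 in interleukin 6 cultures, where Alas1 also fell. In vivo the group means of Nrf1 went the other way, at 13.66, 14.13 and 14.80 along the DWT stages and 12.95, 13.59 and 14.74 along the DKO stages. Alas1 fell from stage II+III to IV in both genotypes. Of the 4, Nrf1 alone was above background in every cultured array, and Ppargc1a was near background in all 20, so these values do not show whether the others changed in culture.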
